A study of Mus musculus with 2 samples.

Results

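The miR-132 and miR-212 cluster is a pair of microRNA (miRNA) loci, Mir132 and Mir212. They were chosen by name: the rows of the deposited tables whose Ensembl identifier belongs to either gene in the mouse GENCODE annotation. Both loci had a row, so the cluster makes up 2 of the 1973 miRNA loci listed. The series holds 1 group of 2 small RNA libraries, each from the whole forebrain of a single newborn mouse (strain B6NCrl, postnatal day 0, pup 1 and pup 3, sex not collected, no treatment or engineered allele named). The labels give the 2 pups 1 shared donor entry. No stimulated, silenced or older tissue was sequenced in this series, so the response of the cluster to neuronal activity was not measured. The measurements are the level of each locus, the ratio between the loci, and the difference between these 2 animals.

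MicroRNAs are short RNAs cut from hairpin precursors. They pair through their seed, bases 2 to 8, with messenger RNAs, and repress them. Mir212 and Mir132 are made from a shared primary transcript that is known in neurons as a target of the transcription factor CREB, which is switched on by synaptic activity and by the growth factor BDNF. The repressor REST is known to keep the cluster low outside neurons. miR-132 is known to promote the growth of dendrites and spines. Levels of miR-132 are known to be higher in the mature than in the newborn brain.

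Each hairpin has 2 arms, and the 4 mature sequences are shown because they set which reads of the loci can be told apart. Sequences are from RefSeq (GRCm38.p6), 5′ to 3′, with the seed in capitals. Both members matched an entry.
mmu-miR-132-3p: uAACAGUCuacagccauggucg
mmu-miR-212-3p: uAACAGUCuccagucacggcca
mmu-miR-132-5p: aACCGUGGcuuucgauuguuac
mmu-miR-212-5p: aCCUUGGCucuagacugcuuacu

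The 3p arms share the seed AACAGUC, and the 5p arms do not share a seed. Among the 1679 mature names in the RefSeq table, which is not complete, no other mature miRNA had the seed AACAGUC, and none shared either 5p seed. Counted from the 5′ end, with the base of miR-132-3p first, the 3p arms differ at 5 of 22 positions: A10C, C14U, U17C, U20C and G22A. The first 9 bases are the same, so any read of a 3p arm that starts at base 1 and reaches base 10 differs between the loci. Compared from the 5′ end without any shift, the 5p arms were identical at 9 of 22 positions. An alignment that allows a shift was not made, so this value does not measure how alike the 5p arms are. None of the 4 mature sequences occurred, on either strand, in another gene among the 141767 annotated GENCODE transcripts. The rest of the genome was not searched.

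The hairpins are shown because the counts were made per hairpin, with the mature arms in capitals.
Mir132: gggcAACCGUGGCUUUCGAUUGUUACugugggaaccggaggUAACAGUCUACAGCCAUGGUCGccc
Mir212: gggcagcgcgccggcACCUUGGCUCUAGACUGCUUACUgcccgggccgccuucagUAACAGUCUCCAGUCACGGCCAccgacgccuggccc

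The longest run of bases that the members share is 10 nt. Against 2201 other annotated hairpins, on either strand, the longest shared run was 11 nt for Mir132 and 12 nt for Mir212. Reads with several genomic matches enter no locus in these tables. Neither member has a long copy among the annotated hairpins that would send its reads there. The deposited counts do not separate the arms, so the shares of 5p and 3p reads were not measured. Mir212 has the longer and more GC-rich hairpin (91 nt, 69.2% GC) and Mir132 the shorter one (66 nt, 57.6% GC). Over the 1005 hairpins of the RefSeq table the median GC content was 51.7%, and 96.9% of them had a lower GC content than Mir212. The minimum free energy computed with RNAfold was −37.2 kcal/mol for Mir132, or −0.56 kcal/mol per nt, and −41.5 kcal/mol for Mir212, or −0.46 kcal/mol per nt. The median per nt was −0.41 kcal/mol, and 93.2% of hairpins were less stable per nt than that of Mir132.

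Both loci lie on the plus strand of chromosome 11 (GRCm38, the assembly also called mm10), Mir212 (ENSMUSG00000065590.1) at 75173388 to 75173478 and Mir132 (ENSMUSG00000065537.1) at 75173682 to 75173747. The stretch between the hairpins is 203 bases. Both fall in intron 1 of the 3-exon noncoding transcript 1700016P03Rik (75172560 to 75177633, same strand). Mir212 begins 790 bases after exon 1, and Mir132 ends 230 bases before exon 2. The nearest miRNA locus with at least 10 counts in both pups on the higher-coordinate side was Mir22, at a distance of 290.0 kb, and on the lower-coordinate side Mir195a, 4938 kb away. Mir22 stood at 10286 CPM (counts scaled to a total of 1000000 on the gene strand of miRNA loci) in pup 1 and 9605 CPM in pup 3.

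**Figure D1:**
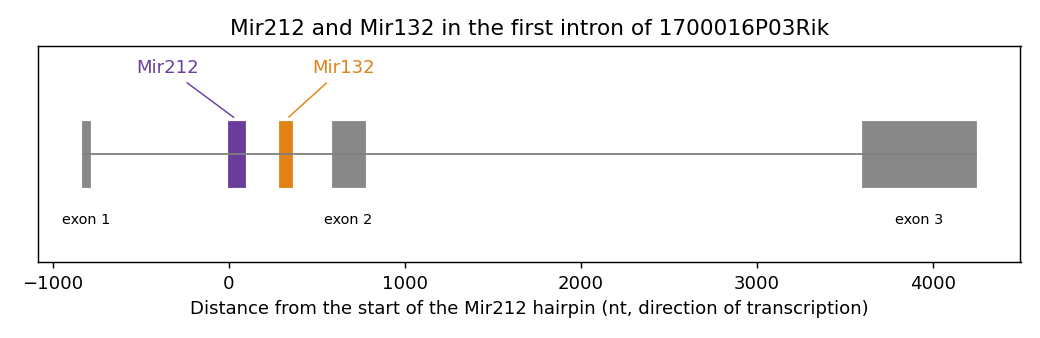
Map of the host transcript 1700016P03Rik to scale, with the distance in nt from the start of the Mir212 hairpin on the horizontal axis. Grey boxes are exons and coloured boxes the hairpins. Mir212 and Mir132 lie 203 bases apart, both in intron 1.

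Reads on the gene strand of miRNA loci totalled 2742746 in pup 1 and 2427066 in pup 3, so 1 count is worth 0.365 and 0.412 CPM. Intervals below are 95% exact Clopper-Pearson intervals on read counts, so they cover counting error only and no variation between animals. PCR copies of a molecule are counted as separate reads, so the intervals can be too narrow. To describe the tissue, 12 of 15 neuron-enriched loci were detected (at least 10 counts in both pups), against 331 of all 1973 loci. Together the neuron-enriched loci held 5.05% of the counts in pup 1 and 4.40% in pup 3, led by Mir137, Mir128-1 (10765 and 11337 CPM) and Mir128-2 (3858 and 4309 CPM). The 3 loci of the neuron-defining miR-124 had few counts, 5.47 and 8.65 CPM at the highest of them, Mir124a-1. Their reads can match each of the 3 loci and then enter none. The list also holds copies of miR-9, miR-128, miR-129, miR-138 and miR-218, which can lose reads in the same way. The share of the neuron-enriched list may thus be too low, and the shares of the lists do not measure cell content. Of the other cell type lists, all loci with a row were detected, so detection alone does not tell the cell types apart. The vessel list (Mir126a, Mir143, Mir145a) held 3.50% of the counts in pup 1 and 3.94% in pup 3, and the oligodendrocyte list (Mir338, Mir219a-1, Mir219a-2) 0.0729% and 0.0550%. The white blood cell and microglia list, led by Mir150, Mir223 and Mir146, held 0.0446% and 0.0427% without Mir142, which had no row. The red blood cell list (Mir451a, Mir144, Mir486) held 0.00882% and 0.00713%, and Mir122 of liver 0.00481% and 0.00630%.

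Mir132 was present at a moderate level in the newborn forebrain. It had 5711 counts in pup 1, or 2082 CPM (interval 2029 to 2137), and 4310 counts in pup 3, or 1776 CPM (1723 to 1829.6). The mean was 1929 ± 217 CPM (SD, n = 2), which is 0.193% ± 0.0217 of the counts. This placed Mir132 at rank 74 of 1973 loci by mean level, at rank 76 in pup 1 and 75 in pup 3. Only 331 loci were detected, and among these its rank was also 74. Loci that lose reads to multiple mapping rank too low, so the rank of Mir132 may be too high. For scale, 3 counts are 1.09 CPM in pup 1 and 1.24 CPM in pup 3. No count fell on the strand opposite Mir132 in either pup.

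Mir212, its upstream neighbour with the same 3p seed, was present at a far lower level. It had 324 counts in pup 1, or 118 CPM (interval 106 to 132), and 221 counts in pup 3, or 91.1 CPM (79.4 to 104). The mean was 105 ± 19.1 CPM (SD, n = 2), or 0.0105% ± 0.00191 of the counts. Mir212 ranked 206 of 1973 by mean level, at rank 205 in pup 1 and 203 in pup 3. Among the 331 detected loci its rank was also 206, with the same limit from multiple mapping. It had no count on its opposite strand in either pup.

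The spread between the pups depended on the scale. Scaled to library totals, the coefficient of variation over both pups was 11.2% at Mir132 and 18.3% at Mir212. With TMM library sizes it was 1.03% and 6.12%, and with DESeq2 size factors 4.11% and 3.04%. Counting error alone would give 1.32% (pup 1) and 1.52% (pup 3) at Mir132, and 5.56% and 6.73% at Mir212. The spread at Mir132 was above counting error with library totals and size factors and below it with TMM sizes. At Mir212 it was above counting error with library totals, between the values of the pups with TMM sizes, and below them with size factors. Across the 331 detected loci, scaled to library totals, the median coefficient of variation was 18.1%, and 26.9% of detected loci lay below Mir132. Detection needs only 10 counts per pup, and counting error is larger at scarce loci. The comparison is not matched for level, so it does not show that Mir132 varies less than other loci. Mir212 lay near the middle, with 50.8% below it. The biological coefficient of variation over 400 loci came from edgeR's common dispersion of an intercept model. It was 0.251 with library totals and 0.215 with TMM library sizes.

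The ranges of neighbouring ranks overlapped. The range of Mir132 over both pups overlapped that of 20 other detected loci, 8 with a higher and 12 with a lower mean. The range of Mir212 overlapped that of 25 loci, 13 higher and 12 lower. Such overlap ignores that the loci were measured in the same libraries, so it does not show whether neighbouring ranks differ. The ranges of Mir132 and Mir212 themselves were far apart.

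The loci most like each member were found by the distance of log2(CPM + 1) over both libraries, which uses only 2 values per locus and is a description of level. Nearest to Mir132 was Mir301, another chromosome 11 locus, with 2083 CPM in pup 1 and 1761 CPM in pup 3 (distance 0.01). It was followed by Mir18 (2031 and 1637 CPM) and Mir101b (1966 and 1621 CPM). Mir195a (1861 and 1756 CPM) and Mir130b (2059 and 2010.2 CPM) came next, and these 5 loci lie on 4 chromosomes. Nearest to Mir212 was Mir494 of the imprinted Dlk1-Dio3 region, with 127 CPM in pup 1 and 88.2 CPM in pup 3 (distance 0.11). Mir412, of the same region, had 123 and 84.9 CPM, and Mir6540 had 129 and 91.9 CPM. Mir190a had 114 and 82.4 CPM, and Mir10a, a Hox cluster locus, had 108 and 104 CPM.

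Mir132 exceeded Mir212 in both pups by a similar factor. The counts of Mir132 were 17.6 times those of Mir212 in pup 1 (exact interval 15.8 to 19.8) and 19.5 times in pup 3 (17.0 to 22.4). On the log2(CPM + 1) scale the ratio was 4.13 in pup 1 and 4.27 in pup 3, with a mean of 4.20 ± 0.10 (SD, n = 2). The difference between the loci was thus many times the spread between the pups. Of the counts of both loci together, Mir212 contributed 5.37% in pup 1 and 4.88% in pup 3. Reads of small RNA libraries are about the length of a mature miRNA, so counts were not divided by length. Per base of the hairpin the log2 ratio was 4.68, since the hairpin of Mir212 is longer. Small RNA ligation favours some sequences over others, and its part in the ratio of the loci was not tested.

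No difference between the pups in the ratio of Mir132 to Mir212 was detectable at this depth. The log2 ratio of pup 3 over pup 1 was lower by 0.14 at Mir212 than at Mir132 (a difference of −0.14), and Fisher's exact test on the 4 counts gave p = 0.267 (two-sided). The odds ratio of this comparison was 0.904, with a 95% interval of 0.755 to 1.08.

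Unequal levels of neighbouring loci were common. Grouping loci of a strand that lie at most 10 kb apart gave 104 clusters, and 27 of these were pairs with both loci detected. The ratio of the higher to the lower mean level was 18.4 for Mir132 and Mir212, the eleventh largest of the 27, against a median of 5.20 and a range of 1.03 to 1098. The next larger ratio was that of Mir34c over Mir34b (22.2), loci typical of multiciliated cells. The next smaller was that of Mir23b over Mir27b (15.7). In 13 of the 27 pairs the second locus in the direction of transcription had the higher mean, as in this cluster, and in 14 the first. Several of the largest ratios belong to pairs in which a locus shares at least 20 nt with another hairpin, so that its reads can map to several places. Among the 11 pairs with no such run, the ratio of Mir132 to Mir212 was the fifth largest.

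**Figure D2:**
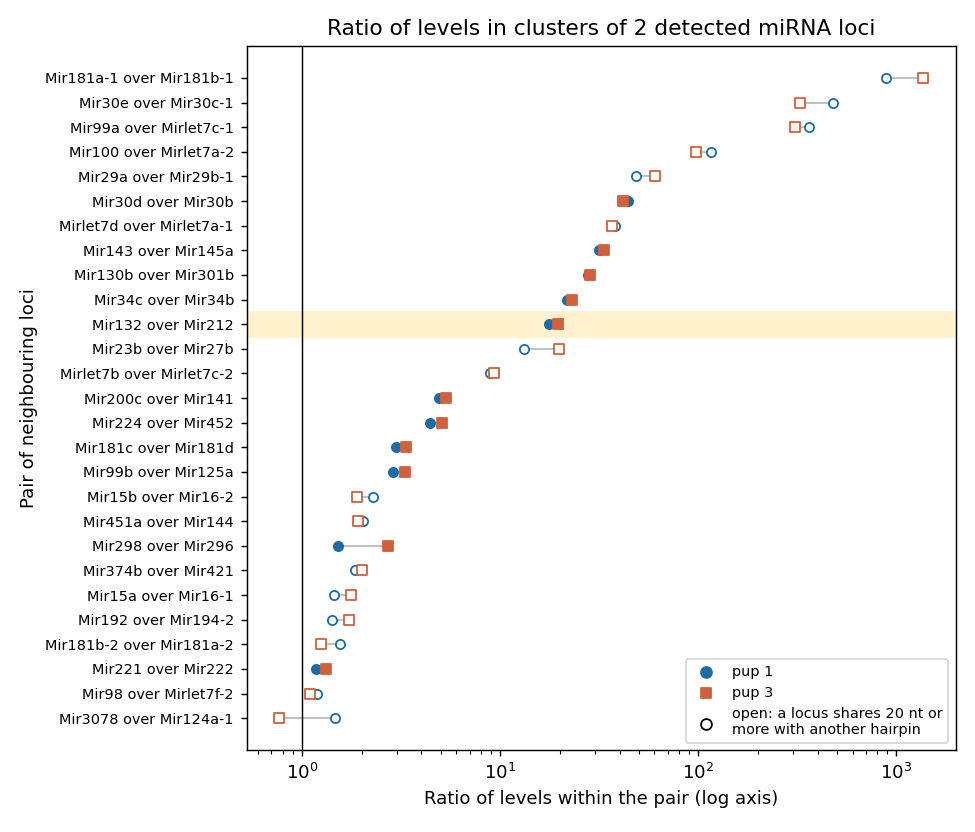
Ratio of the level of the higher to that of the lower locus (log axis) in the 27 clusters of 2 detected miRNA loci, in pup 1 (circles) and pup 3 (squares). Open symbols mark pairs with a locus that shares at least 20 nt with another hairpin. The shaded pair, Mir132 over Mir212, had ratios of 17.6 and 19.5.

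Relative to library totals, both members were lower in pup 3. At Mir132 the log2 ratio of pup 3 over pup 1 was −0.23, a fold of 0.853 (exact interval 0.820 to 0.887), with an adjusted p of 9.28e-15 (Fisher's exact test of each locus against the rest of its library, two-sided, Benjamini-Hochberg over 400 loci with at least 10 summed counts). At Mir212 it was −0.37, a fold of 0.771 (0.647 to 0.917), with an adjusted p of 0.00609 by the same Fisher's exact test. Each side is 1 animal, so the test compares these libraries and not conditions. Of all tested loci 56.5% passed and 46.2% were lower in pup 3, so a call at both members is close to the background. The median log2 ratio of all tested loci was −0.31, with Mir132 0.08 above it and Mir212 at −0.06 from it.

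Measured against that median, both members lay close to the middle of all tested loci. The median distance of a locus from the overall median was 0.28 on the log2 scale, and 18.8% of loci lay closer to the median than Mir132 and 14.8% closer than Mir212. The direction at Mir132 depended on the scale. With TMM library sizes its log2 ratio was 0.021 (fold 1.01, interval 0.975 to 1.06, adjusted exact binomial p = 0.629), where 46.5% of tested loci passed and 26% were lower. With DESeq2 size factors it was 0.084 (fold 1.06, interval 1.02 to 1.10, adjusted exact binomial p = 0.0101), higher in pup 3, where 45.2% of tested loci passed and 24.5% were higher. Mir212 did not pass with either, at −0.12 (adjusted exact binomial p = 0.501) and −0.061 (adjusted exact binomial p = 0.784). These scales move the median of all tested loci from −0.31 to −0.08 (TMM) and −0.02 (size factors).

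**Figure D3:**
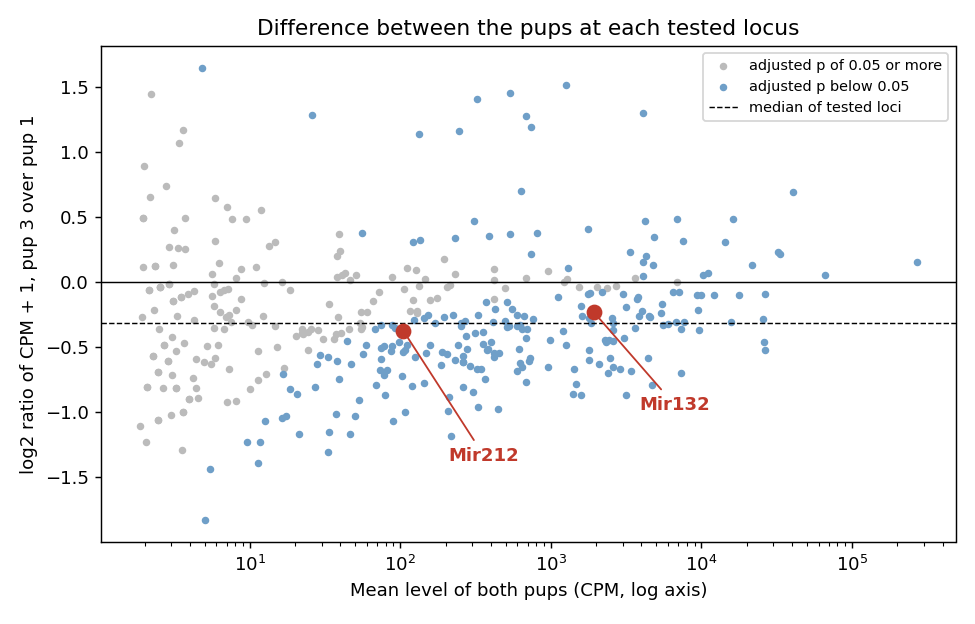
Log2 ratio of CPM + 1 in pup 3 over pup 1 against the mean level in CPM (log axis) for the 400 tested loci, scaled to library totals. Blue points passed the test at an adjusted p below 0.05, grey points did not, and the dashed line is the median of −0.31. Mir132 (−0.23) and Mir212 (−0.37), in red, lie on either side of that line.

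Counted from reads placed at a single locus, Mir132 was among the more abundant of the loci linked to neuronal activity or plasticity, and Mir212 among the scarcer. The list holds 25 loci other than the members, of which 24 had a row (Mir191 had none) and 21 were detected. Of all 1973 loci, 331 were detected. Only 3 loci of the list stood above Mir132 in mean level: Mir137, which acts in neuronal differentiation, with 28264 CPM in pup 1 and 23308 CPM in pup 3, Mir181a-1, with 6756 and 8439 CPM, and Mir381, with 4175 and 2604 CPM. Mir187 was next below Mir132, with 1743 and 1454 CPM, a range that does not reach that of Mir132. Mir138-1, whose product is known to limit spine size, had 1479 and 1060.1 CPM. Mir134, known to repress the kinase Limk1 in dendrites, had 757 and 492 CPM. Above Mir212 stood 18 loci of the list, the nearest being Mir495 with 127 and 115 CPM. Several listed miRNAs have copies at other loci and lose reads to multiple mapping, so this order is uncertain for them. The listed loci below Mir212 are all copies of miR-26a, miR-9 or miR-124. Such loss lowers a locus, so the places of Mir132 and Mir212 in the list may be too high.

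**Figure D4:**
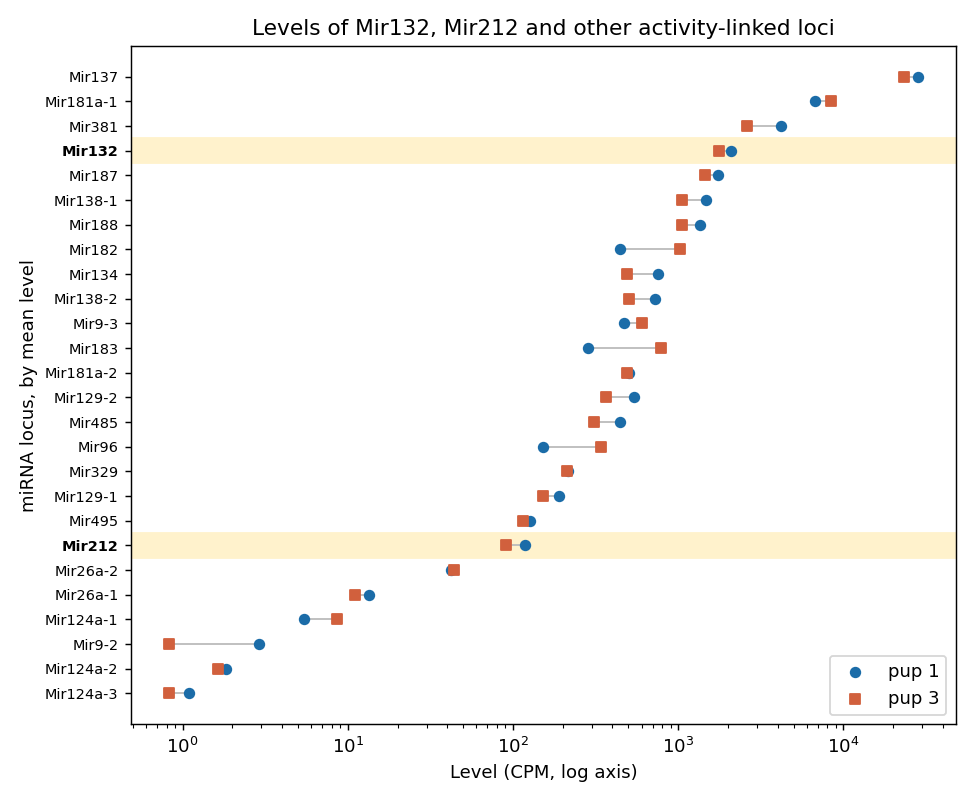
Level in CPM (log axis) of Mir132, Mir212 (shaded) and the 24 listed activity-linked loci with a row, in pup 1 (circles) and pup 3 (squares), ordered by mean level. Mir132 lies below Mir381, with 2082 and 1776 CPM, and Mir212, with 118 and 91.1 CPM, lies between Mir495 and Mir26a-2.

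The activity-linked list did not move one way between the pups. Of its 22 tested loci, 5 were higher and 10 lower in pup 3 and 7 did not pass with library totals, where 10.2% of all tested loci were higher and 46.2% lower. Its median log2 ratio was −0.26, against −0.31 over all tested loci. The 3 loci with the highest ratios were Mir183 (1.46), Mir182 (1.20) and Mir96 (1.17), a cluster known from sensory organs. With DESeq2 size factors 8 were higher, 6 lower and 8 did not pass, where 24.5% of all tested loci were higher and 20.8% lower, and the median was 0.04, against −0.02 over all tested loci. The neuron-enriched list, of which 3 of 13 tested loci were higher and 7 lower with library totals, had a median log2 ratio of −0.48. With size factors 4 were higher, 5 lower and 4 did not pass, and its median was −0.17. Of its 15 loci, 10 are also in the activity-linked list, so the lists are not independent. In a bulk tissue, fewer cells of a type and less RNA per cell cannot be told apart, and the part of neuronal content in the difference between the pups was not tested.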

How the data were processed

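Small RNA libraries from 2 newborn mouse forebrains were analysed. The authors deposited raw read counts per miRNA gene, without normalization, made on assembly mm10 with annotation release M4 per the deposited text and the labels. Neither aligner nor counter is named (not given in the sources used here). The gene-strand column was used. Pup 1 had 6657203 reads and pup 3 had 5883027, of which this column held 41.2% and 41.3%. The 4 rows that name no gene were left out, among them reads mapping to several places (42.2% and 44.1%), unmapped reads (13.4% and 12.3%) and reads outside miRNA loci (3.23% and 2.27%).

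Identifiers were matched to GENCODE M21 (GRCm38), in which 1894 of 1973 rows had a name. CPM are counts scaled to 1000000 gene-strand counts. Log2 values use CPM + 1. A single group gives no contrast for the quasi-likelihood test of edgeR, so Fisher's exact test (threshold 0.05, adjusted) was used. It was tried only on simulated counts with counting error, which hold no variation between animals. The pups are separate animals. A genome sequence was not used here, so the planned search of the genome and of the upstream region was not made. The analysis used edgeR 4.0.16 and DESeq2 1.42.0 under R 4.3.3, RNAfold 2.7.2, and scipy 1.17.1 with pandas 2.3.3, matplotlib 3.10.9 and numpy 2.4.6 under Python 3.11.15.

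The members, the lists and the rule for named loci were chosen with earlier results of these data known. The rule takes the members, the 5 loci nearest in level to each, the nearest detected loci on chromosome 11, loci that share a seed, the pairs next above and below in ratio, and the 3 highest loci of a list. Mir187, Mir138-1, Mir134, Mir495, Mir26a-2, the miR-183 cluster and Mir124a-1 were named after their values were seen.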

Additional observations from a re-analysis of the deposited data

How the results depend on the processing

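Of 46 alternative values computed, 37 were scored as unchanged. For most, this meant the same direction and call or a move of less than 1 SD. Some of the 37 could not have been scored otherwise, so the count overstates stability. In a group of this size, leaving out either pup cannot move a mean by 1 SD. The pseudocount does not enter Fisher's exact test, so it could not change a call between the pups. The number of loci called has neither a direction nor an SD, so it was scored by a separate limit on its fold from the main number. All of its alternatives are among the 37. Leaving the most abundant locus out of the totals raised the level of Mir132 to 2637 CPM and that of Mir212 to 143 CPM. Per 1000000 reads of the whole library, chosen after seeing the data, they were 795 and 43.1. Per base of the hairpin, also chosen after seeing the data, the log2 ratio of Mir132 over Mir212 was 4.68. The direction between the pups at Mir132 turned with TMM library sizes (0.021) and with DESeq2 size factors (0.084), and Mir212 no longer passed with either (−0.12 and −0.061). With the scale set by library totals or all reads, and under the other filters, pseudocounts and columns run, both members stayed lower in pup 3 with an adjusted p of at most 0.0218 (Fisher's exact or exact binomial test). Leaving out a replicate gave 1776 to 2082 CPM for Mir132, 91.1 to 118 CPM for Mir212 and 4.13 to 4.27 for their log2 ratio. The number of loci called ranged from 181 to 235. No paired analysis was possible because the series holds a single group. The depth of Mir212, 221 to 324 counts, limits the precision of its ratios.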
